A study of Caenorhabditis elegans with 2 samples.

Results

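The nuclear receptor genes of C. elegans, the family to which fax-1 itself belongs, were examined for ChIP-seq enrichment of tagged FAX-1. Members were the genes whose symbol in the WBcel235 annotation is nhr- plus a number, together with fax-1, daf-12, odr-7, unc-55 and sex-1. This gave 274 of 19973 protein-coding genes on the nuclear chromosomes, and receptor genes under other symbols were not counted. A candidate region was a set of overlapping rows of the loosely called peak list of the pooled replicates, and it was given to the protein-coding gene whose 5′ end was nearest to its strongest summit, up to 5000 bp away. Of 12691 nuclear candidate regions, 134 were given to 90 receptor genes, and 184 receptor genes had none. The members were split into 15 receptors of families shared with flies or vertebrates (conserved receptors), 166 other nhr genes on chromosome V (the chromosome V set) and 93 remaining receptors.

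The study used strain OP164, a transgenic line that stably carries FAX-1 with GFP and FLAG at its C-terminus. Hermaphrodite late embryos were taken 4 h after synchronization by egg bleaching, whole organisms were used, chromatin was sonicated, and the tagged protein was precipitated with an antibody against GFP. There was 1 group of 2 biological replicates, with no untagged strain or other stage analysed here, so the data allow description and no test between conditions. The labels do not say which promoter drives the fusion. Because whole animals were used, weak binding in many cells and strong binding in few cells cannot be told apart.

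Nuclear receptors are transcription factors with a zinc-finger DNA-binding domain and a domain that in many members binds a small lipophilic ligand. Nematodes carry a large expansion of the family, mostly descended from an HNF4-like ancestor, beside a small set with clear counterparts in insects and vertebrates. FAX-1, the counterpart of vertebrate PNR (NR2E3), is required for the identity and axon pathfinding of particular interneurons. Receptors of its class bind short elements built around AAGTCA, and many other receptors bind elements built around AGGTCA.

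Signals below are the authors' values from the signal column of their peak lists. The scale of that column is not stated, so regions were ranked within a list, with rank 1 the strongest. The pooled list had 13841 rows with signals of 31.6 and above, the list of replicate 1 had 15446 rows and that of replicate 2 had 18555. The final list, filtered by the authors for reproducibility between replicates, held 830 pooled rows, and its lowest signal was 98.3. The sources used here do not give the read depth. Shares of genes with a region carry 95% Wilson intervals, which describe the error of counting alone, and other shares are given as counts or percentages without one.

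Sequences at the receptor regions of the final list and at some weaker candidates are shown first, as examples of the DNA under the summits. They are 151-bp windows centred on the summit, read 5′ to 3′ on the plus strand from the RefSeq sequence of WBcel235 (ce11). The first pair are final regions whose summits lay inside tRNA genes, chrX:15741980-15742130 upstream of nhr-255 and chrIV:1388173-1388323 in an intron of nhr-41. Capitals mark GGTTCGA or its complement, the core of the tRNA B box, an internal promoter element of RNA polymerase III.
nhr-255: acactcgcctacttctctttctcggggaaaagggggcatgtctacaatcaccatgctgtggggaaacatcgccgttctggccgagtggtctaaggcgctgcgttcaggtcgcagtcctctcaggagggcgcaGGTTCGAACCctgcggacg
nhr-41: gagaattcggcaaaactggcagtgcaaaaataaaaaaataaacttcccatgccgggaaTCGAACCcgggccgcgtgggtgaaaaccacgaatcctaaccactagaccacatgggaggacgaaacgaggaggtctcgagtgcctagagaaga

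The other final regions, chrX:17513610-17513760, chrX:15707504-15707654 and chrIII:4237755-4237905, had no tRNA gene near. All 3 windows held GAGAGA on 1 strand or the other, shown in capitals as GAGAGA or TCTCTC.
nhr-1: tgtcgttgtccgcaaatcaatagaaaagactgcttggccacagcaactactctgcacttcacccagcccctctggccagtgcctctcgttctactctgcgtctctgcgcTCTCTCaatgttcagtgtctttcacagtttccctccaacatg
nhr-48: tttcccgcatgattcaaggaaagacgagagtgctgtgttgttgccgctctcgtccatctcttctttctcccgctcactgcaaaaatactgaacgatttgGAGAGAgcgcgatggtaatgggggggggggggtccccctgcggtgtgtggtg
nhr-20: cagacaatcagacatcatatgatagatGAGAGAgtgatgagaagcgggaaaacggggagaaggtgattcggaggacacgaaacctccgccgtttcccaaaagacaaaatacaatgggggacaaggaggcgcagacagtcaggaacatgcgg

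The remaining windows are weaker candidates, picked as examples rather than taken in order of signal. They are the daf-12 intron at chrX:10637617-10637767 and the strongest intergenic region of the chromosome V set, upstream of nhr-256 at chrV:1743479-1743629, neither with a searched element. The strongest candidate of nhr-25 at chrX:13006491-13006641 has overlapping TCTCTC in capitals. At chrX:2591697-2591847, upstream of nhr-40, capitals mark TGACCT, the complement of AGGTCA.
daf-12: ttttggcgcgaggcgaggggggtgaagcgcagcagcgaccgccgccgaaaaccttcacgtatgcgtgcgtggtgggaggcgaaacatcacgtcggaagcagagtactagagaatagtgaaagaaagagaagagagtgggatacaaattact
nhr-256: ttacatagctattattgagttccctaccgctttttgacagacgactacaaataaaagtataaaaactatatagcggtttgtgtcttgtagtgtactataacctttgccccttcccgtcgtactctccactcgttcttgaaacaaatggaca
nhr-25: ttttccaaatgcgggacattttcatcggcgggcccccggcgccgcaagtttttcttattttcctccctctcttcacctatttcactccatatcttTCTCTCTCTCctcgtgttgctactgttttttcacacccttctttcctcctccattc
nhr-40: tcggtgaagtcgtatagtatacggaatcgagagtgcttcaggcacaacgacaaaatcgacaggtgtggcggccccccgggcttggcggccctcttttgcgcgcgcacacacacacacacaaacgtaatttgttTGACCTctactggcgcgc

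A region was given to 90 of 274 receptor genes (32.8%, interval 27.6 to 38.6%), against 38.4% of all protein-coding genes, a share that the interval held. The 3 classes differed in this share. It was 9 of 15 for the conserved receptors (60.0%, interval 35.7 to 80.2%), 38 of 166 for the chromosome V set (22.9%, interval 17.2 to 29.9%) and 43 of 93 for the remaining receptors (46.2%, interval 36.5 to 56.3%). The intervals of the conserved receptors and the chromosome V set did not overlap, which is no test between classes. The interval of the conserved receptors held the share of all genes (38.4%) and that of the remaining receptors (46.2%). The shares of all genes on the same chromosomes, receptors included, are set beside these. The intervals take genes as independent, and that of the conserved receptors is wide, so they do not show that the shares are equal. The interval of the chromosome V set held the share of all genes on V (27.2%), and that of the 14 conserved receptors off V (64.3%, interval 38.8 to 83.7%) held the share of all genes off V (42.2%).

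The same order of classes was seen in each replicate's own list. In replicate 1, 66.7% of conserved receptors, 27.1% of the chromosome V set and 51.6% of the remaining receptors had a region, against 42.2% of all genes. In replicate 2, 12 of 15 conserved receptors, 31.3% of the chromosome V set and 62.4% of the remaining receptors had one, against 47.9% of all genes. The conserved share was thus above the share of all genes, and the chromosome V share below it, in both replicates and in the pooled list. Among all genes on V the share was 30.3% in replicate 1 and 37.7% in replicate 2, nearer to that of the chromosome V set. Conserved receptors off V had 71.4% and 78.6% in replicates 1 and 2, against 46.2% and 51.4% of all genes off V. Genes of the classes also differed in the sequence that could be given to them. The stretch nearest to a gene's start had a median of 7252 bp for conserved receptors, 3380 bp for the chromosome V set and 5452 bp for the remaining receptors, against 3860 bp for all genes. Counted per 100 kb of such sequence there were 17.5 regions for conserved receptors, 6.82 for the chromosome V set and 13.1 for the remaining receptors, against 12.7 for all genes, 9.19 for all genes on V and 13.8 for genes off V. The order of the classes was the same per 100 kb as per gene. Neighbouring copies were common in the chromosome V set: 107 of its 166 genes lay beside another receptor gene, against 30 of the 93 remaining receptors and 0 of the 15 conserved ones.

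**Figure D1:**
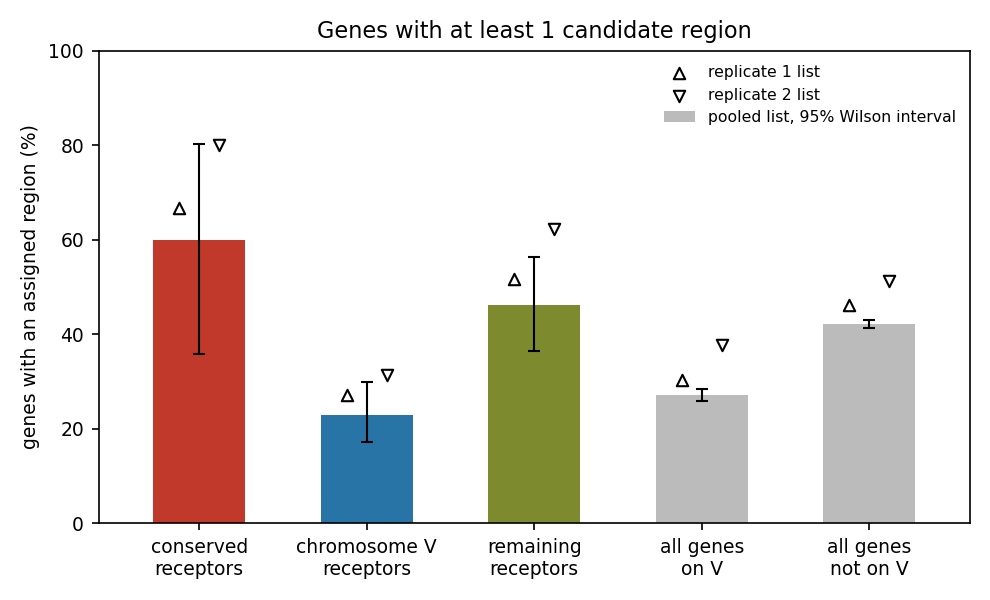
Share of genes with at least 1 candidate region, in percent, by class of receptor and for all genes on and off chromosome V. Bars give the pooled list with 95% Wilson intervals, and triangles give each replicate's own list; conserved receptors reach 60.0% and the chromosome V set 22.9%, against 27.2% of all genes on V and 42.2% of genes off V.

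Most receptor regions were weak. The median signal was 40.9 over the 134 receptor regions, against 40.7 over all 10969 regions given to a gene. It was 45.5 for conserved receptors (middle 50% 34.9 to 59.5), 38.4 for the chromosome V set (33.9 to 42.3) and 44.2 for the remaining receptors (35.4 to 54.3), against a middle 50% of 35.2 to 52.5 for all. These ranges overlap. In the replicates' own lists the medians of the conserved receptors, the chromosome V set and the remaining receptors were 31.7, 24.7 and 29.3 in replicate 1, against 27.1 for all genes. They were 18.1, 15.7 and 16.6 in replicate 2, against 16.7 for all genes.

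Few receptor regions reached the final list. It held 5 of the 134 (3.73%), against 6.17% of all nuclear candidate regions. Counted over genes, 5 of 274 receptors (1.82%) had a final region, against 3.5% of all protein-coding genes. Conserved receptors had 2 of their 19 regions in it (10.5%), the chromosome V set 0 of 42, and the remaining receptors 3 of 73 (4.11%). With so few final regions, differences between these shares rest on 1 to 3 regions. The 0 of the chromosome V set also depends on the limit of 5000 bp. A final region lay 5315 bp upstream of nhr-114, a gene of that set.

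**Figure D2:**
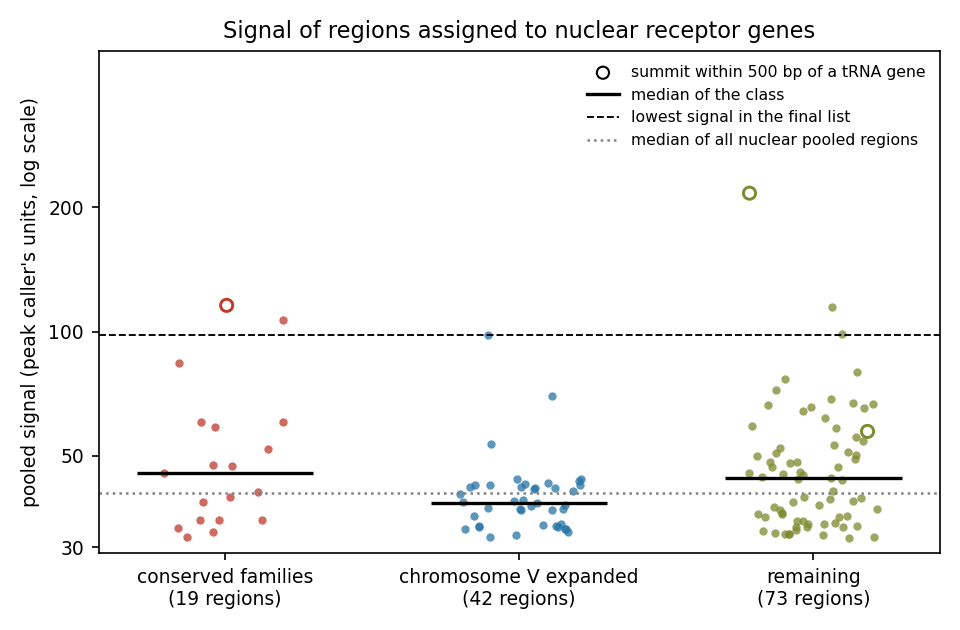
Pooled signal of each receptor region on a log scale, by class; points are regions, thick bars are class medians and open circles are summits within 500 bp of a tRNA gene. In all, 5 regions lie above the dashed line at 98.3, the lowest signal of the final list, and the medians of the classes (45.5, 38.4 and 44.2) lie close to that of all nuclear regions (40.6).

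The strongest receptor region belonged to nhr-255, with a signal of 216.6 (X 15741837 to 15742272, pooled rank 172). It ranked 201 in replicate 1 with a signal of 131.5 and 163 in replicate 2 with a signal of 83.4. This was the only receptor region among the 830 strongest rows of both replicates. Its summit lay 555 bp upstream of nhr-255 (WBGene00014068) and inside ZK678.t1, a gene for tRNA-Leu, whose B box is in the window printed above.

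The nhr-41 region (IV 1388030 to 1388465) had a signal of 115.8 and pooled rank 583. Its rank was 503 in replicate 1 (signal 82.0) and 880 in replicate 2 (signal 36.7), so that it was just outside the 830 strongest rows of replicate 2. The gene nhr-41 (WBGene00022423) encodes the counterpart of fly DHR78 and of vertebrate TR2 and TR4. The summit was in an intron, 2033 bp downstream of the gene's first start and 151 bp downstream of another annotated start, and inside Y104H12A.t1, a tRNA-Glu gene on the opposite strand. For this region and that of nhr-255, enrichment at the tRNA gene and at the receptor gene cannot be told apart.

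Of the final regions with no tRNA gene near, that of nhr-1 (X 17513467 to 17513902) had a signal of 114.8 and pooled rank 588. It ranked 573 in replicate 1 and 1255 in replicate 2, and its summit lay 378 bp upstream of nhr-1 (WBGene00003600). The nhr-48 region (X 15707361 to 15707796) had a signal of 106.7 and pooled rank 703, with its summit 634 bp upstream of nhr-48 (WBGene00003638), a receptor of the same subfamily as daf-12 and nhr-8. The replicates placed it differently, at rank 460 in replicate 1 (signal 86.6) and 2967 in replicate 2 (signal 23.7). The weakest final member was the nhr-20 region (III 4237612 to 4238250), with a signal of 98.6 and pooled rank 823. Its rank was 1009 in replicate 1 and 649 in replicate 2. The summit lay 4611 bp upstream of nhr-20 (WBGene00003619) and 4745 bp from the start of F43C1.7, so the assignment to nhr-20 was decided by a small difference in distance.

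Just below the limit of the final list was the strongest region of the chromosome V set, at nhr-47 (V 5505058 to 5505493), with a signal of 98.0 and pooled rank 832. It ranked 669 in replicate 1 and 2286 in replicate 2. The summit lay 23 bp downstream of the nhr-47 start (WBGene00003637), in an untranslated exon, and 419 bp from the start of dnj-19, which encodes a DnaJ-type chaperone. Next came daf-12, which encodes the receptor for the dafachronic acids that choose reproductive growth over dauer arrest. Its 1 region (X 10637474 to 10637909) had a signal of 83.8, with ranks of 952 in replicate 1 and 1855 in replicate 2, and lay in an intron 1784 bp downstream of the gene's first start.

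The conserved receptors with weaker candidates came next. The nhr-25 gene, the counterpart of FTZ-F1 and SF-1 with roles in epidermis and moulting, had 4 regions, with signals of 60.3 at 1927 bp upstream, 39.7 at 31 bp upstream, and 34.9 and 31.7 within the gene. The strongest ranked 1661 in replicate 1 and 6551 in replicate 2, and the one beside the start was found in replicate 1 only. For nhr-23, the counterpart of fly DHR3 and vertebrate ROR that drives moulting, the signals were 60.3 in an intron, 695 bp from another start of the gene, and 34.8 at 89 bp downstream of the first start. The stronger ranked 3220 in replicate 1 and 1636 in replicate 2, and the weaker was found in replicate 2 only. The nhr-239 regions had signals of 58.8 at 621 bp upstream and 47.5 at 1902 bp upstream, and both were found in both replicates.

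For sex-1, which helps to count X chromosomes in sex determination, the signals were 52.0 at 293 bp upstream and 45.5 at 980 bp downstream. The stronger was found in both replicates and the weaker in replicate 1 only. The nhr-85 gene, the counterpart of fly E75 and vertebrate Rev-erb, had regions of 47.2, 34.9 and 33.3, of which the strongest was found in both replicates. For nhr-67, the counterpart of tailless and TLX, the 1 region had a signal of 32.6 at 851 bp upstream and was found in replicate 2 only, at rank 12041. Apart from its final region, nhr-48 had regions with signals of 40.9 in an intron and 38.6 at 4990 bp upstream, which was just inside the limit of 5000 bp.

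**Figure D3:**
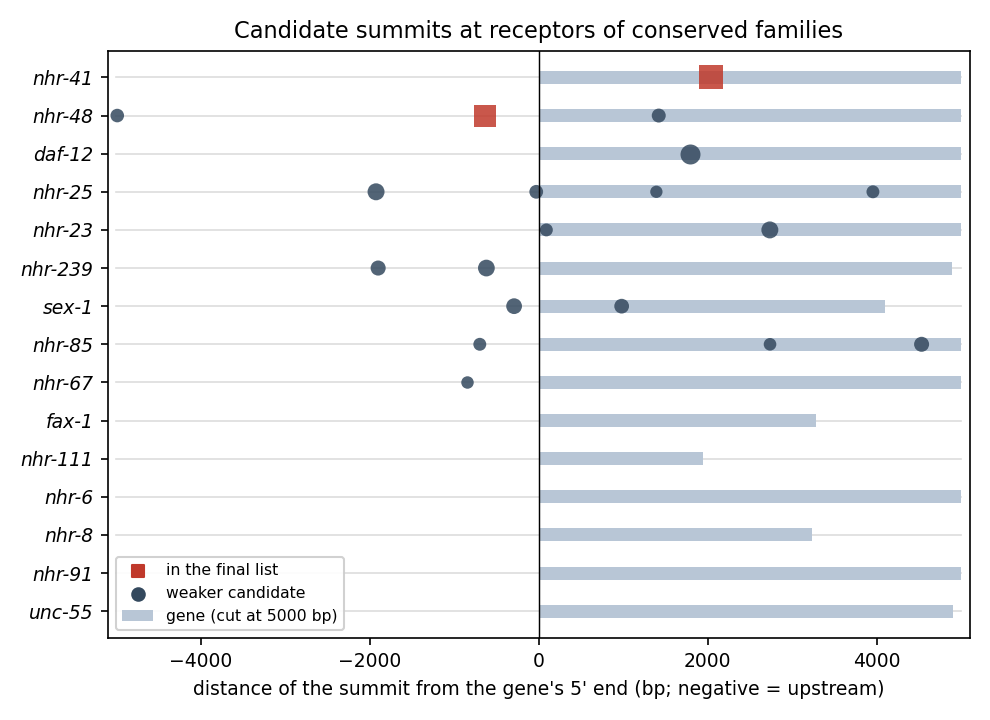
Positions of candidate summits around the 5′ ends of the 15 conserved receptors, in bp with negative values upstream; marker size grows with pooled signal and pale bars are genes, cut at 5000 bp. The final regions of nhr-41 (2033 bp downstream) and nhr-48 (634 bp upstream) are squares, and 6 genes have no summit assigned to them; summits assigned to other genes are not drawn.

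The 6 conserved receptors without a pooled region were fax-1, nhr-6, nhr-8, nhr-91, nhr-111 and unc-55. The fax-1 gene (WBGene00001400, X 3196064 to 3199349) was given no region in the pooled list or in either replicate. Its nearest pooled summit was 16621 bp away with a signal of 32.5, and was given to rgl-1. For nhr-8, which acts in xenobiotic resistance and cholesterol balance, a summit with a signal of 51.3 lay 1150 bp upstream but was nearer to emc-6. The others were given a region in 1 replicate only. For unc-55, the COUP-TF counterpart that sets the synaptic pattern of VD motor neurons, replicate 1 had a region with a signal of 25.3 at rank 9237. In replicate 2, nhr-6, the NR4A counterpart, had a region with a signal of 20.3 at rank 4793, nhr-91, the GCNF counterpart, had 13.0 at rank 17356, and nhr-111 had 13.8 at rank 15097. Beyond the limit of 5000 bp, pooled summits lay 5490 bp upstream of nhr-6 (signal 32.1) and 7965 bp downstream of the unc-55 start (signal 57.1). The latter was also listed in both replicates and was given to no gene. The lowest signal listed was 21.0 in replicate 1 and 12.7 in replicate 2.

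The odr-7 gene, which specifies the AWA olfactory neurons, also had no pooled region, by a narrow margin of distance. A final region with a signal of 116.4 and pooled rank 574 had its summit 3468 bp downstream of the odr-7 start, beyond the 3′ end of the gene and inside the tRNA gene T18D3.t1, and was nearer to the start of T18D3.1. It ranked 649 in replicate 1, 3463 bp from odr-7. In replicate 2 it ranked 621, and its summit there, 3449 bp from the odr-7 start, was given to odr-7. Such choices also touched other members. Final regions lay in introns of nhr-17 (signal 338.4, at the tRNA gene C02B4.t2) and nhr-40 (signal 107.4) but were nearer to the starts of nlp-76 and T03G6.7. A final region 5315 bp upstream of nhr-114, of the chromosome V set, lay just outside the limit of 5000 bp (V 4181669 to 4182104, signal 155.1). It ranked 270 in replicate 1 and 653 in replicate 2. A weaker nhr-25 candidate at 5206 bp (signal 43.6) also lay just outside the limit.

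Among the 93 remaining receptors, the next strongest candidates were weaker than that of daf-12. The nhr-217 region had a signal of 79.8 at 477 bp upstream, with ranks of 1242 in replicate 1 and 2391 in replicate 2. At nhr-17 the signal was 76.6 at 2666 bp upstream, and this region was found in replicate 1 only, at rank 1293. The nhr-46 gene had intronic regions of 72.2 and 68.5, both found in both replicates at ranks between 1575 and 2617. None of these regions was among the 830 strongest rows of either replicate.

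Candidates of similar strength lay close to the starts of several other receptors. The nhr-32 region had a signal of 66.8 at 220 bp upstream (ranks 2112 in replicate 1 and 1821 in replicate 2). At nhr-64, which encodes an HNF4-like receptor, the signal was 66.5 at 87 bp downstream, in an untranslated exon (ranks 3810 and 1096 in replicates 1 and 2). At nhr-2, which is active in the early embryo, it was 65.3 at 55 bp downstream, in a coding exon (ranks 3617 and 1537 in replicates 1 and 2). Farther from its gene, the nhr-40 region printed above had a signal of 65.7 at 2231 bp upstream, and was 2267 bp from the start of T03G6.7. NHR-40 acts in muscle and embryonic development. The nhr-3 gene had 4 regions with signals of 64.3, 61.7, 58.9 and 33.6. In the chromosome V set, the second strongest region was that of nhr-256, with a signal of 69.6 at 217 bp upstream (ranks 1807 and 1940 in replicates 1 and 2). Of the 20 strongest receptor regions, 10 lay on X and 2 on V, where 31 and 42 of all 134 receptor regions lay. The same count was not made for the strongest of all nuclear regions.

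Receptor regions strong in the pooled list were mostly listed in both replicates, and fewer of the weak ones were. The pooled list was made from both replicates, so this is no independent measure of their agreement. Of the 134, 104 (77.6%) overlapped a row of replicate 1, 84 (62.7%) a row of replicate 2 and 58 (43.3%) rows of both, against 77.3%, 68.8% and 49.9% of all nuclear regions. The share found in both was 47.4% for conserved receptors, 31.0% for the chromosome V set and 49.3% for the remaining receptors. Of the 20 strongest, 19 were found in both, a count that was not made for the strongest of all nuclear regions. Those found in neither numbered 4 of the 134, at nhr-58, nhr-186, nhr-31 and nhr-45, against 413 of all 10969 regions given to a gene. Among the 830 strongest rows of replicate 1 were 5 receptor regions, against a background of 6.16% of all nuclear regions. Among those of replicate 2 were 2, against a background of 6.13%. As shares of the 134, both counts were below the background. Of the 58 regions found in both, 35 (60.3%) had the better rank in replicate 1, against 55.4% of all nuclear regions found in both.

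**Figure D4:**
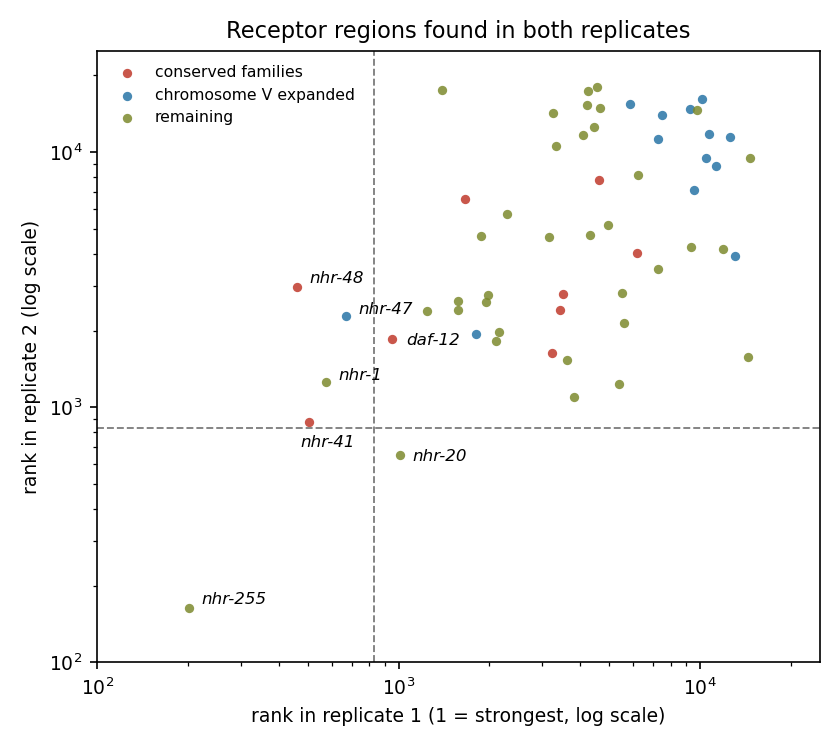
Rank in replicate 1 against rank in replicate 2 for the 58 receptor regions found in both, on log axes with 1 the strongest; dashed lines mark rank 830. The nhr-255 region alone (ranks 201 and 163) lies inside both lines.

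The median distance to the gene's 5′ end was 1195 bp, against 1052 bp for all regions given to a gene, and 28.4% lay within 500 bp, against 31.5%. Summits of the chromosome V set were nearer, with a median of 740 bp and 40.5% within 500 bp, against 983 bp and 32.8% for all genes on V. Summits of the conserved receptors had a median of 1419 bp with 15.8% within 500 bp, and those of the remaining receptors a median of 1706 bp with 24.7%. The sequence nearest to a gene's start limits this distance, and it was shortest for the chromosome V set (median 3380 bp). Its part in these differences was not tested. Upstream of the start lay 41.8% of receptor summits, against 50.5% of all. Many receptors have several annotated starts. Counting any start of the gene, 45 of the 134 summits (33.6%) lay within 500 bp. This was not counted for all regions, so the 31.5% above is not its background.

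By position in the gene, 60 receptor summits were intergenic (44.8%), 47 in introns (35.1%), 19 in coding exons (14.2%) and 8 in untranslated exons (5.97%). Over all regions given to a gene these shares were 45.5%, 29.2%, 18.1% and 7.17%. Coding exons held 11 of the 42 summits of the chromosome V set (26.2%), 1 of 19 for conserved receptors (5.26%) and 7 of 73 for remaining receptors (9.59%), against 18.1% of all regions given to a gene. Of the 20 strongest receptor regions, 12 were intergenic and 5 intronic, which was not counted for the strongest of all nuclear regions. Base composition also differed between the classes. The median G and C content of the windows was 49.01% for conserved receptors, 38.4% for the chromosome V set and 41.7% for remaining receptors, against 40.4% for all. Among all nuclear regions the median was 47.02% in the final list and 39.7% outside it. Of the 10 strongest receptor regions, 9 were at or above 47.7%, the upper quartile of all nuclear regions. The part of base composition in these differences was not tested.

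Summits near tRNA genes were as rare as elsewhere but included the strongest. They numbered 3 of 134 receptor regions within 500 bp (2.24%), against 2.48% of all nuclear regions. Beside nhr-255 and nhr-41, these were at nhr-69, which encodes an HNF4-like receptor, where the summit was 77 bp from the tRNA-Glu gene T23H4.t1 and the signal was 57.2. No receptor summit lay within 500 bp of an snRNA or snoRNA gene. Without the regions near these RNA genes the median signal of the receptor regions was 40.4 and the final list held 3 of them.

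The element AAGTCA of the FAX-1 class was present on either strand in 9 of 134 receptor windows (6.72%), against 5.06% of all nuclear windows. These windows belonged to nhr-69, nhr-19, nhr-159, nhr-114, nhr-128, nhr-280, nhr-156, a weak region of nhr-1 and nhr-45, with signals from 32.8 to 57.2. None was in the final list, and none was at a conserved receptor. The longer AAAGTCA, which contains AAGTCA, was in 4 (2.99%, against 2.18%). AGGTCA was in 6 (4.48%, against 4.13%), among them the nhr-40 window printed above and the stronger nhr-23 window. Each share was near its background, and a match or its absence describes only the letters in these windows.

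GAGAGA, a repeat bound by GAGA-type factors in flies, was in 26 receptor windows (19.4%), against 17.1% of all nuclear windows. It was in 7 of 19 windows of conserved receptors (36.8%), 6 of 42 of the chromosome V set (14.3%) and 13 of 73 of the remaining receptors (17.8%). Over all regions given to genes on V the share was 14.7%, near that of the chromosome V set, and off V it was 17.3%. The 7 windows of conserved receptors were at nhr-48, nhr-25, sex-1, nhr-85 and nhr-23, and 5 of these 7 were on X. Over all receptors on X the share was 12 of 31 windows (38.7%), and the part of the chromosome in the difference between classes was not tested. Of the 20 strongest receptor windows, 9 held it. Among all nuclear regions it was in 24.9% of final windows and 16.6% of the others, so that it was more frequent in strong regions generally. The tRNA core GGTTCGA was in 3 receptor windows (2.24%, against 2.19% of all), those of nhr-255, nhr-41 and nhr-183.

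Receptors studied for metabolism and stress were examined as a list of 12, all HNF4-type. A region was given to 9 of them (interval of the share 46.8 to 91.1%), with 12 regions and a median signal of 37.1 against 40.7 for all. The final list held 0 of the 12, against 6.59% of all regions given to a gene, a share at which fewer than 1 of 12 would be in it. The final region 5315 bp upstream of nhr-114 (signal 155.1) was beyond the limit of 5000 bp and is not among the 12. The share of genes with a region compares with 38.4% of all genes. Per 100 kb of sequence nearest to their starts, the genes of this list had 16.3 regions, against 12.7 for all. The replicates' own lists differed in this. Replicate 1 had 12.2 per 100 kb, against 14.2 for all, and replicate 2 had 27.1, against 16.8. The highest were at nhr-66 (67.3), whose product partners NHR-49, then nhr-49 itself (58.5), a regulator of fat metabolism and the response to fasting, and nhr-69 (57.2). The nhr-49 summit lay 196 bp upstream of the gene, at ranks 5597 and 2139 in replicates 1 and 2. Lower signals were at nhr-86 (43.0), nhr-114 (38.8), nhr-10 of the propionate shunt (35.4), nhr-62 of the response to dietary restriction (34.4), nhr-80, another partner of NHR-49 (33.8), and nhr-31, which acts in the excretory cell (33.5). The hypoxia-responsive nhr-57, nhr-13, whose product also partners NHR-49, and nhr-68 of the propionate shunt had no pooled region.

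Co-regulators of the receptors and enzymes of their steroid ligands were examined as a list of 9 genes that are not members. Regions were given to 4 (44.4%, interval 18.9 to 73.3%), against 38.4% of all genes, which the interval held. The final list held 2 of their 15 regions (13.3%), against 6.59% of all regions given to a gene, a difference that rests on 2 regions. The din-1 gene, which encodes a co-repressor of DAF-12, had a final region with a signal of 155.6 at 1597 bp upstream, at ranks 363 and 347 in replicates 1 and 2. The cbp-1 gene, which encodes the CBP and p300 acetyltransferase, had a final region with a signal of 131.5 at 877 bp upstream, at ranks 526 and 439 in replicates 1 and 2. Both were among the 830 strongest rows of both replicates. The din-1 summit lay 19 bp from the snoRNA gene ZK20.9, while that of cbp-1 had no tRNA, snoRNA or snRNA gene within 500 bp. The NCoR-like co-repressor gene gei-8 had its highest signal at 65.4 and the steroid dehydrogenase gene hsd-1 at 37.3. The enzyme genes daf-9, daf-36, dhs-16 and strm-1, and mdt-15, which encodes a Mediator subunit, had no region.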

How the data were processed

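The data are peak lists of anti-GFP ChIP-seq from 2 biological replicates of whole C. elegans late embryos carrying tagged FAX-1. Per the metadata texts deposited with the files, the authors called peaks loosely on each replicate and on the pooled replicates, with a control, and filtered the pooled list by the irreproducible discovery rate. The signal value of each peak and the summit offset in bp are the authors' deposited columns, placed by the standard order of the format. The sources used here do not name the aligner, peak caller or threshold, and depth is unknown.

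The ce11 lists were used; of the ce10 lists, only the lowest signal of the final list was. Overlapping rows were merged and represented by the row of highest signal, and mitochondrial rows were left out. A region was final when it overlapped a final row by at least 1 bp, and was found in a replicate when it overlapped a row there, ranked by the strongest such row. Genes came from Ensembl release 115 (WBcel235), and summits were counted near an RNA gene within 500 bp. Sequences of 151 bp were searched on both strands. Shares are given with 95% Wilson intervals. With 1 group of 2 replicates, no test was made.

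Named are the conserved receptors, odr-7, members in the final list, the 20 receptors with the strongest region, and the metabolic and co-regulator lists. Others are named where a count or a match singled them out, after their values were seen. The members and lists were chosen with earlier results of these data known. The alternatives were other distances, unmerged rows, each replicate alone, stricter final lists, other windows and assignment by gene body. Assignment was tested on simulated data, where 200 of 200 planted regions were recovered. Python 3.11.15, pandas 2.3.3 and SciPy 1.17.1 were used.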

Additional observations from a re-analysis of the deposited data

How the results depend on the processing

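Of 52 values recomputed under alternatives, 37 stayed within their limits. The limit was at most 1.5 times for counts. For medians it was less than the SD between the replicates' own lists, 7.63 for signal and 13.8 bp for distance. The SD for signal is between lists on their own scales, so it is a loose limit for medians of the pooled list. The number of receptor regions in the final list was 3 with assignment within 1000 bp, 3 without regions near tRNA, snoRNA or snRNA genes, and 1 in the stronger 50% of the final rows. With the strongest rows of 1 replicate in its place it was 2 to 5, the 2 being without replicate 1. With the lowest final signal on ce10 as the limit, an alternative chosen after seeing the data, it was 6 and included nhr-47. The median distance was 346 bp within 1000 bp, 1595 bp within 10000 bp, 1222.5 bp with unmerged rows and 1244 to 1263.5 bp in the replicates' own lists. Near tRNA genes lay 1 region within 1000 bp of its gene and 5 unmerged rows. The median signal was 16.6 to 27.4 in the replicates' own lists, which are on their own scales. AAGTCA was in 5 windows at 50 bp to each side and in 17 at 100 bp. The number of receptor genes with a region was 60 to 122, that of conserved receptors 7 to 12 and that of the chromosome V set 26 to 52 over all alternatives run. Causes were not tested. No paired analysis was possible because there is 1 group. Depth is unknown, and an absent region says only that none was listed.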
